A study of Homo sapiens with 8 samples.

Results

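The AP-1 transcription factor genes described here were FOS, FOSB, FOSL1, FOSL2, JUN, JUNB, JUND, ATF3 and BATF. These 9 genes were chosen by name from the 20090 protein-coding genes of the annotation on chromosomes 1 to 22 and X, by a rule that uses no measured value, although earlier results of these data were known when they were chosen. AP-1 is a dimer of basic leucine zipper proteins. FOS proteins pair with JUN proteins and JUN proteins can also pair with each other, while BATF proteins pair with JUN proteins and ATF3 acts as a homodimer or with JUN proteins. The dimers bind the TRE, TGAGTCA, or the closely related CRE, TGACGTCA, and many of these genes are induced within minutes when MAP kinases signal. In myeloid cells, AP-1 factors are known for roles in differentiation and in the inducible genes of monocytes and granulocytes.

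The cells were HL-60, a human line with promyelocytic morphology from a patient with acute leukemia, which differentiates toward granulocytes under all-trans retinoic acid (ATRA). The ATRA group received 1 µM ATRA for 4 days, and the control group received the same volume of the ethanol solvent for 4 days. Chromatin immunoprecipitation with sequencing was performed for H3K4me3, a mark of active promoters, and H3K27ac, a mark of active promoters and enhancers. Each mark had 2 ATRA and 2 control libraries, 8 in all, numbered replicate 1 and replicate 2. The labels do not say whether replicates came from separate cultures, so the spread between them may be technical.

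Each gene was read in a window of its gene body plus 20 kb on each side, 41.8 to 95.4 kb long, as the length under peaks in each library. The transcription start site (TSS) was that of the MANE Select transcript. A gene is called longer, or shorter, only where both ATRA libraries lay above, or below, both control libraries. With 2 libraries against 2, no exact two-sided permutation p can be below 0.33, so single genes were not tested, and the share of all genes with the same call is given beside the counts. Changes are log2 ratios of the ATRA mean over the control mean after 1000 bp was added to each, which understates the change of windows with few peaks. The libraries differed in total length under peaks, from 47.7 to 63.2 Mb for H3K4me3 and from 28.8 to 86.1 Mb for H3K27ac. The mean total was higher in ATRA by 0.22 for H3K4me3 and by 0.87 for H3K27ac on the log2 scale, and the number of reads behind the peaks is unknown. By number of peaks found in both replicates, the paper reports fewer in ATRA than in control for both marks. The cause of this difference in direction was not tested.

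Promoter sequence is shown for the 5 members whose window next to the TSS holds no exon of a protein-coding gene. These sequences were read from GRCh37, the build of the peaks, from 250 to 11 bases upstream of the TSS, 5′ to 3′ on the strand of the gene. Capitals mark matches on either strand to the CRE, to the JUN form TGACATCA, to the half-site TGACGT or to TATAAA. Half-site matches overlap a CRE only at JUND, which has a further half-site 87 to 82 bases before the TSS. FOS lay at chr14:75745281-75745520 (+), FOSB at chr19:45971004-45971243 (+), JUN at chr1:59249730-59249969 (-), JUNB at chr19:12902050-12902289 (+) and JUND at chr19:18392443-18392682 (-).
FOS: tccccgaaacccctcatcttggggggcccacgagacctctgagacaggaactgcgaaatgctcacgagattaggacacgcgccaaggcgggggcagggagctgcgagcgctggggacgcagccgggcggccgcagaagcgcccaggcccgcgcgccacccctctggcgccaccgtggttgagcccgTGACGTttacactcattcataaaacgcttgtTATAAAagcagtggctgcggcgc
FOSB: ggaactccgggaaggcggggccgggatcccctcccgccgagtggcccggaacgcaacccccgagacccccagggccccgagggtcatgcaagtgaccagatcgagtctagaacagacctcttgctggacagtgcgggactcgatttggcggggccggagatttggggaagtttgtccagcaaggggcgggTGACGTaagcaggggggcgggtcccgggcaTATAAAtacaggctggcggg
JUN: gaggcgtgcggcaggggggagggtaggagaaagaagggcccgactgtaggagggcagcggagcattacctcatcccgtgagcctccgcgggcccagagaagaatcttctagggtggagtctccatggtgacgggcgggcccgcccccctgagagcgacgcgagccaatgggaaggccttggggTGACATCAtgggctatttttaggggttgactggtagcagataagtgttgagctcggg
JUNB: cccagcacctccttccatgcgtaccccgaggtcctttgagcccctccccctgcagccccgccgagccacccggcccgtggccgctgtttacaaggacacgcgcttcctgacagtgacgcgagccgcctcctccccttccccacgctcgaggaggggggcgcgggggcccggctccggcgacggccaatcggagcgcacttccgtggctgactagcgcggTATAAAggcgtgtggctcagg
JUND: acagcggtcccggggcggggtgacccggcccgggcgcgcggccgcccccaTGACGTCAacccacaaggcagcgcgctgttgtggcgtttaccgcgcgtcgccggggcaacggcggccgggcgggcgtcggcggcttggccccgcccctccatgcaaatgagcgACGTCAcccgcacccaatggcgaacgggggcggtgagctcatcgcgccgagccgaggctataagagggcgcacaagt

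A full CRE stood in the 250 bases upstream of the TSS of JUND, 200 to 193 bases before it, and 2.39% of 20086 promoters of the same length held one. The form TGACATCA stood 67 to 60 bases before the TSS of JUN and in 1.93% of promoters. The half-site TGACGT was present in 6 of the 9 members (FOS, FOSB, FOSL1, FOSL2, JUND and ATF3) and in 8.52% of all promoters. It began 64 bases before the TSS in FOS, 60 in FOSB and 66 in FOSL2, on the same strand as the gene. TATAAA stood 33 to 28 bases before the TSS of FOS, 30 to 25 before that of FOSB, 31 to 26 before that of JUNB and 32 to 27 before that of ATF3, against 9.41% of promoters. The half-site and TATAAA were searched after the sequences had been read. Within these 250 bases the TRE was in no member and in 3.07% of promoters. The CArG box was in no member and in 1.13%, and sequence further upstream was not searched. The BATF promoter stood apart in composition, with 43.2% GC against a median of 63.2% over all promoters.

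Both ATRA H3K27ac libraries covered more of the window than both control libraries at 5 of the 9 genes, FOS, FOSB, FOSL1, JUND and BATF. Among 15477 protein-coding genes with an H3K27ac peak in their window, 43.7% had that call. JUN was the 1 gene with the opposite call, which 3.86% of genes had, and FOSL2, JUNB and ATF3 overlapped between the groups. The median log2 change over the 9 genes was 0.64, against 0.49 over all genes tested. FOS and JUN overlapped between groups when the gene body was read alone, and none of the 5 genes kept its call among peaks with a −log10 q of at least 5, which left 12.8% to 16.9% of H3K27ac peaks per library. A longer stretch under peaks can come from more cells with the mark, from more mark per cell or from differences in reads between libraries. These cannot be told apart here, since the number of reads is unknown.

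The calls depend on how the library totals are treated. With each window expressed as a share of its library's total length under peaks, FOS, FOSB, FOSL1 and BATF were higher in ATRA, 4 of 9 against 18.4% of all genes, and FOSL2, JUN, JUNB and ATF3 were lower, 4 of 9 against 25.1%. JUND then overlapped and its log2 change turned from 0.64 to -0.25. On this scale, the median change was -0.25 over the members and -0.13 over all genes.

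**Figure D1:**
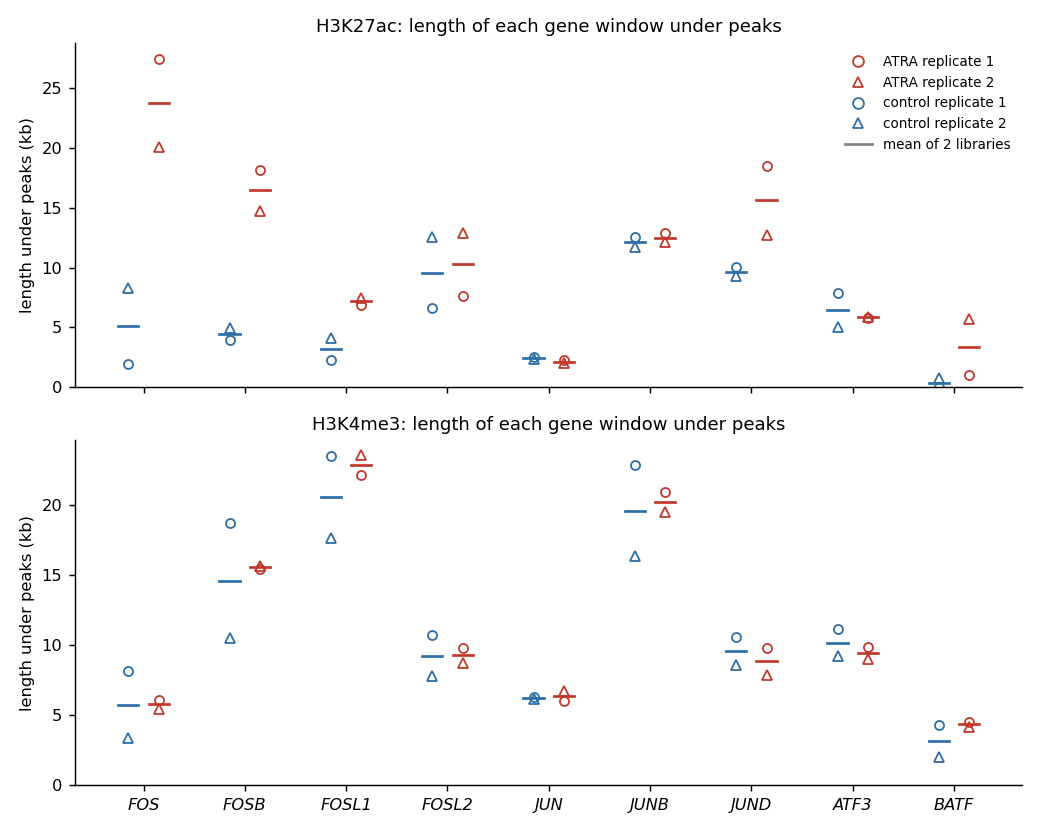
Length of each AP-1 gene window under H3K27ac peaks (top) and H3K4me3 peaks (bottom), in kb, in each library. Red marks ATRA and blue control, circles replicate 1 and triangles replicate 2, and bars the mean of 2 libraries. The ATRA H3K27ac libraries stand above the control libraries at FOS, FOSB, FOSL1, JUND and BATF, and the H3K4me3 libraries overlap at all 9 genes.

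FOS encodes the founding FOS-family partner of JUN proteins and lies at chr14:75745529-75748933 on the plus strand. Its window held 27439 and 20101 bp of H3K27ac in ATRA replicates 1 and 2 and 1915 and 8327 bp in control replicates 1 and 2. Both ATRA libraries lay far above both control libraries, and the control libraries themselves differed widely. The ATRA mean was 4.64 times the control mean. With 1000 bp added to each mean, the log2 change was 2.02 ± 0.87 (SE, n = 2 and 2). This change was larger than that of 94.7% of the genes tested. The change was 3.09 without control replicate 2 and 1.41 without control replicate 1.

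The added H3K27ac lay around the FOS gene rather than over it. H3K27ac covered 437 and 0 bp of the gene body in ATRA and 292 and 0 bp in control. Stretches covered in both ATRA libraries and neither control library summed to 8319 bp, and no base of the window was covered in all 4 libraries. The longest of them, 2417 bp, lay 12.7 to 10.3 kb upstream of the TSS, and one of 1030 bp lay 15.9 to 14.9 kb upstream, both within unnamed lncRNA genes. Downstream, stretches of 1190 and 833 bp began 14.7 and 18.8 kb from the TSS over exons of LINC01220, a lncRNA gene. Of the H3K27ac in the window, 21566 and 15522 bp in ATRA and 0 and 7184 bp in control were outside any H3K4me3 peak of the 4 libraries. The groups did not overlap in this measure either.

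At the FOS TSS itself, H3K27ac was present in ATRA replicate 1, as a peak of 5638 bp, and in control replicate 1, as a peak of 1697 bp. Neither replicate 2 library had a peak over it. The deposited −log10 q of those peaks was 1.66 in ATRA and 12.2 in control. When only peaks with a −log10 q of at least 5 were kept, the FOS window change turned to -0.97, and the groups overlapped. The H3K4me3 peak over the TSS was 5107 and 4601 bp in ATRA and 5044 and 3053 bp in control, so it was there in all 4 libraries and its length overlapped.

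**Figure D2:**
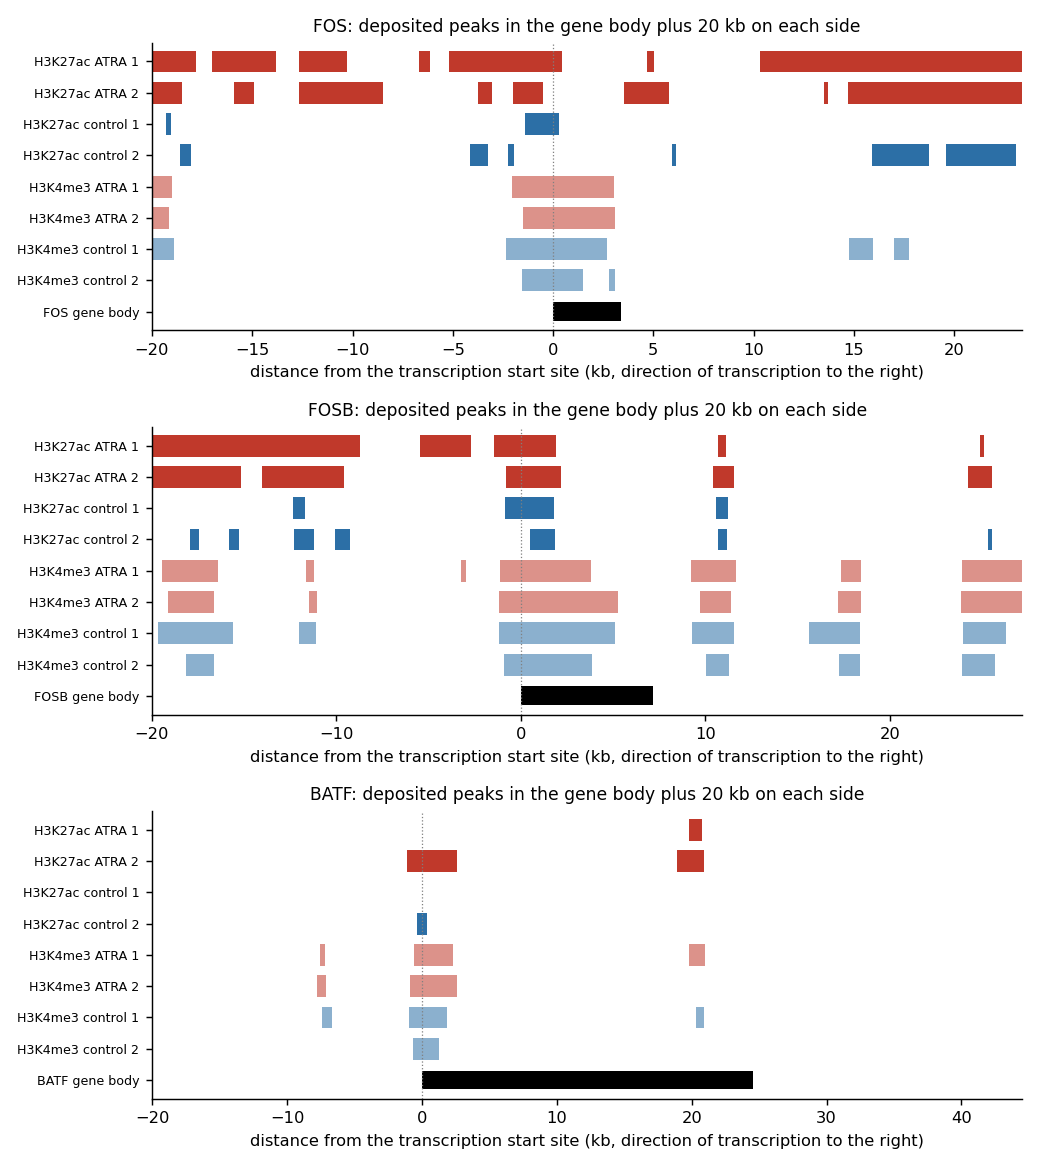
Deposited peaks in the windows of FOS, FOSB and BATF, by distance from the TSS in kb, with a row for each library (H3K27ac dark, H3K4me3 pale, ATRA red, control blue) and the gene body in black. At FOS and FOSB the H3K27ac present only in ATRA lies away from the gene body, while H3K4me3 covers the TSS in every library.

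The middle 200 bases of the longest ATRA-only stretches at FOS and BATF outside protein-coding exons are shown as examples of sequence with H3K27ac in ATRA alone, and they hold a minor part of the difference between the groups. They lie at chr14:75733964-75734163 near FOS and chr14:76008992-76009191 in the BATF intron, GRCh37, plus strand, and hold no TRE, CRE, half-site or CArG box to capitalize.
FOS upstream stretch: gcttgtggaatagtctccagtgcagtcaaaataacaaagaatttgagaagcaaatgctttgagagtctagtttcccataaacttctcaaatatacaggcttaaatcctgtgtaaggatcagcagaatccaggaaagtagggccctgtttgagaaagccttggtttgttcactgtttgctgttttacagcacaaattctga
BATF intron stretch: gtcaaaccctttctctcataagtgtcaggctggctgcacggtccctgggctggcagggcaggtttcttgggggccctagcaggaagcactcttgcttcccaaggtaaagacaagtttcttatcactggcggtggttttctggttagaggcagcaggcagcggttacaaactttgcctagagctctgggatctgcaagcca
Over their whole lengths of 2417 and 1025 bp, these stretches held 0 TRE matches. The longest such stretch at FOSB, of 1696 bp, also held 0 and is not shown. Among the 200-base middles of all 10255 ATRA-only H3K27ac stretches of at least 500 bp in the genome, 3.85% held a TRE and 0.0975% a CRE. These shares apply to middles of 200 bases and not to whole stretches.

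FOSB, a close relative of FOS, lies at chr19:45971253-45978437 within an intron of ERCC1, a DNA repair gene, as annotated. Its window held 18160 and 14778 bp of H3K27ac in ATRA and 3950 and 4980 bp in control. The groups were well apart and the replicates were close, with a log2 change of 1.68 ± 0.20, larger than that of 91.1% of genes. The 6902 bp covered only in ATRA included 4 stretches of at least 500 bp, all from the window's far edge to 10.1 kb upstream of the FOSB TSS and within ERCC1, and 1 of them covered an ERCC1 TSS. A stretch of 1334 bp that began 484 bp inside FOSB was covered in all 4 libraries.

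Over the FOSB TSS, the H3K27ac peak was 3344 and 3010 bp long in ATRA, 2680 bp in control replicate 1 and absent in control replicate 2. FOSB was thus 1 of the 2 members, with JUND, whose H3K27ac TSS peak was longer in both ATRA libraries, a call that 30.5% of genes with such a peak had. Without peaks below a −log10 q of 5, the FOSB window change was -1.40, and the groups overlapped. The window also holds TSS of RTN2 and PPM1N, so its length cannot be assigned to FOSB alone.

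FOSL1, or FRA-1, lies at chr11:65659520-65668044 and its window holds TSS of 6 other protein-coding genes, among them FIBP, CCDC85B and DRAP1. Its H3K27ac was 6888 and 7458 bp in ATRA and 2253 and 4116 bp in control, apart in both replicates, with a log2 change of 0.97 ± 0.33. No library had H3K27ac over the FOSL1 TSS. Peaks over the TSS of other protein-coding genes held 3815 and 7111 bp in ATRA and 1021 and 533 bp in control. Peaks over no protein-coding TSS held 3073 and 347 bp against 1232 and 3583 bp, which overlapped. Within the gene body, H3K27ac was 1654 and 2949 bp in ATRA and 0 and 993 bp in control. The window length therefore cannot be assigned to FOSL1 alone. A stretch of 802 bp in the gene body, 5.91 to 6.71 kb from the TSS, was covered only in ATRA. The change was -0.032 among peaks with a −log10 q of at least 5, where the groups overlapped. H3K4me3 over the TSS was 3830 and 6162 bp long in ATRA, 16993 bp in control replicate 1, where it ran on into the neighboring genes, and absent in control replicate 2, which had a peak within 1 kb.

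FOSL2, or FRA-2, lies at chr2:28615315-28640184 with no other protein-coding TSS in its window. Its H3K27ac was 7650 and 12884 bp in ATRA and 6597 and 12569 bp in control. Replicate 2 was high and replicate 1 low in both groups, so the groups overlapped. Among peaks with a −log10 q of at least 5, FOSL2 was shorter in ATRA, by a log2 change of -2.46. All 4 libraries shared 2227 bp of H3K27ac over the TSS. H3K4me3 formed 1 broad peak over the TSS of 9823, 8709, 10031 and 7764 bp in ATRA replicates 1 and 2 and control replicates 1 and 2, longer than at least 88.2% of TSS peaks in each library.

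JUN encodes the central JUN protein and lies at chr1:59242517-59249720 on the minus strand. Its only H3K27ac in 3 of the 4 libraries was 1 peak over the TSS, of 2242 and 2009 bp in ATRA and 2490 bp in control replicate 1. Control replicate 2 had a TSS peak of 2061 bp, a peak of 266 bp about 5 kb upstream and 12 bp at the downstream edge of the window. The window lengths were thus 2242 and 2009 bp in ATRA against 2490 and 2339 bp in control, which do not overlap, with a log2 change of -0.13 ± 0.06, or -0.075 without ATRA replicate 2. The TSS peaks alone overlapped, so the call rests on the other peaks of control replicate 2, and it ended when the window was widened to 50 kb on each side. All 4 libraries shared 1969 bp over the TSS. The H3K4me3 peak was 6032 and 6708 bp in ATRA and 6262 and 6172 bp in control, and a stretch of 665 bp within the gene, 2.94 to 3.60 kb from the TSS, was covered only in ATRA.

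JUNB, an immediate early gene whose product can oppose JUN, lies at chr19:12902300-12904129. A single very long H3K27ac peak covered the gene and the region upstream in every library. It was 12861 and 12157 bp long in ATRA and 12584 and 11154 bp in control, overlapping between groups. These peaks were longer than 97.0% to 99.7% of the H3K27ac TSS peaks of their libraries, and 11154 bp, from 9.05 kb upstream to 2.11 kb downstream of the TSS, was common to all 4. This common stretch also covered a TSS of HOOK2, the neighboring gene. The window change was 0.04 ± 0.06, and its SE and that of JUN were the smallest among the 9 genes. The H3K4me3 TSS peak was 13605 and 11133 bp in ATRA and 14967 and 7059 bp in control, with the shortest in control replicate 2.

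JUND, the JUN protein with the most constant expression in most cells, lies at chr19:18390504-18392432 on the minus strand. Its H3K27ac was 18537 and 12772 bp in ATRA and 10070 and 9276 bp in control, so both ATRA libraries were higher, with a log2 change of 0.64 ± 0.26, or 0.37 without ATRA replicate 1. That change was larger than that of 59.3% of genes. It turned to -1.08 among peaks with a −log10 q of at least 5, where the groups overlapped. A stretch of 4496 bp located 12.8 to 8.28 kb upstream of the TSS, outside annotated genes, was covered in all 4 libraries, and H3K4me3 covered 3620 bp of the same place in all 4. Over the TSS, the H3K27ac peak was 4819 and 4007 bp in ATRA, 3894 bp in control replicate 1 and absent in control replicate 2, where peaks on either side left a gap.

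ATF3, a stress-induced member of the ATF family, lies at chr1:212738676-212794119, and its MANE Select TSS is inside the gene record, since other transcripts start upstream. Its window held 5832 and 5865 bp of H3K27ac in ATRA and 7918 and 5048 bp in control, which overlapped, with a log2 change of -0.13 ± 0.28 that turned to 0.18 without control replicate 1 and to 1.98 among peaks with a −log10 q of at least 5, where the groups overlapped. Over the TSS base, however, H3K27ac was present only in control, with peaks of 2106 and 1676 bp, and absent in both ATRA libraries. ATF3 was the 1 member with a shorter H3K27ac TSS peak in ATRA, a call that 3.67% of genes had. Both ATRA libraries had peaks within 1 kb, and that of replicate 1 covered another annotated ATF3 TSS. The stretch covered only in control was 535 bp, from 478 bp upstream to 56 bp downstream of the TSS. The −log10 q of the control peaks was 2.75 and 0.992. A stretch of 2146 bp that began 27.6 kb downstream of the TSS was covered in all 4 libraries.

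BATF, a partner of JUN proteins best known in lymphocytes, lies at chr14:75988798-76013336 and had the least H3K27ac in control. Its window held 1025 and 5677 bp in ATRA and 0 and 784 bp in control, with a log2 change of 1.64 ± 0.96, or 0.54 without ATRA replicate 2. The groups did not overlap, but ATRA replicate 1 lay much closer to control replicate 2 than to the other ATRA library. The TSS had H3K27ac in the replicate 2 libraries alone, with a peak of 3694 bp in ATRA and 784 bp in control. A stretch of 1025 bp in an intron, 19.8 to 20.8 kb from the TSS, was covered in both ATRA libraries and in neither control library. BATF was also the 1 member whose H3K4me3 TSS peak was longer in both ATRA libraries, at 2946 and 3482 bp against 2876 and 1997 bp, a call that 41.3% of genes with such a peak had.

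FOS and BATF lie on the same chromosome with JDP2, a further AP-1 family gene, between them, and their TSS are 243.3 kb apart. Over the 307.8 kb from the start of the FOS window to the end of the BATF window, H3K27ac covered 41689 and 45872 bp in ATRA and 6915 and 19360 bp in control. Both ATRA libraries were above both control libraries by more than the spread within either group, but the interval includes the FOS and BATF windows described above. Between those windows, H3K27ac covered 13225 and 20094 bp in ATRA and 5000 and 10249 bp in control. There the groups did not overlap, but the gap between them was smaller than the spread within either. Of the whole 307.8 kb, 12511 bp was covered only in ATRA, 532 bp only in control and 1688 bp, in an intron of JDP2, in all 4 libraries. The FOS window held 8319 bp of the ATRA-only length and the BATF window 1025 bp. H3K4me3 over the same interval was 16910 and 15081 bp in ATRA and 19437 and 10987 bp in control, which overlapped.

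Over the members as a group, 5 (FOS, FOSB, FOSL1, JUND and BATF) had at least 1000 bp of H3K27ac in both ATRA libraries and neither control library, against 33.3% of genes. No member had as much in both control libraries alone, which 4.57% of genes had. H3K27ac covered the TSS in both ATRA libraries at FOSB, FOSL2, JUN, JUNB and JUND, 5 of 9 genes against 28.6% of all genes. It covered the TSS in both control libraries at FOSL2, JUN, JUNB and ATF3, 4 of 9 genes against 21.6%.

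As a share of the window, the order of the genes by H3K27ac differed between the groups. In control, JUNB was first, with 30.1% and 27.9% of its window under peaks in replicates 1 and 2, and JUND second with 24.0% and 22.1%, and these did not overlap. FOSL2 (10.2% and 19.4%), FOS (4.41% and 19.2%), FOSB (8.37% and 10.6%), ATF3 (8.30% and 5.29%) and FOSL1 (4.64% and 8.48%) followed. Neighbors in this order overlapped except that FOSL2 lay below JUND and ATF3 lay just below FOSB in both libraries. JUN, at 5.27% and 4.96%, overlapped with FOSL1, and BATF was last, at 0% and 1.21%, below JUN in both libraries. In ATRA, FOS was first at 63.2% and 46.3%, above JUND at 44.2% and 30.5%, which overlapped with FOSB at 38.5% and 31.3%. JUNB, at 30.7% and 29.1%, lay just below FOSB and overlapped with JUND.

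**Figure D3:**
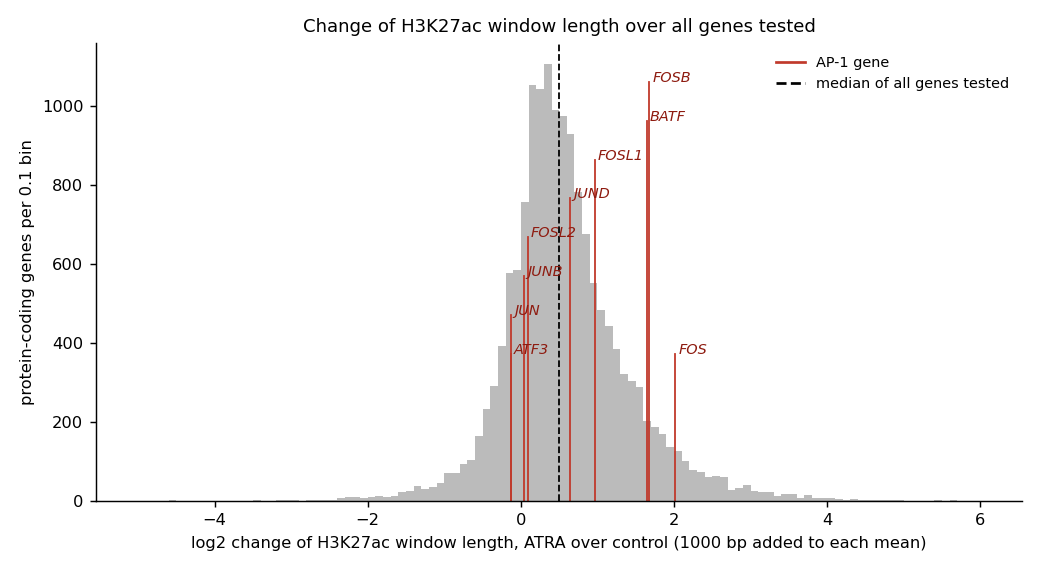
Histogram of the log2 change of H3K27ac window length, ATRA over control, over the 15477 protein-coding genes with an H3K27ac peak in their window, in bins of 0.1. The dashed line is their median, 0.49, and red lines mark the 9 AP-1 genes, of which FOS, FOSB and BATF stand in the right tail and JUN, ATF3, JUNB and FOSL2 left of the median.

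H3K4me3 separated the groups at none of the 9 genes. No member was longer in both ATRA libraries, a call that 41.3% of 14609 genes had, and none was shorter, which 3.39% had. The median log2 change was 0.03 over the members and 0.16 over all genes tested. Control replicate 1 was the highest of the 4 libraries at FOS (8115 bp against 3356 in control replicate 2 and 6101 and 5447 in ATRA), FOSB, FOSL2, JUNB, JUND and ATF3. Control replicate 2 was the lowest at FOS, FOSB, FOSL1, FOSL2, JUNB and BATF. Without control replicate 1, 6 members were longer in ATRA, which 81.5% of genes were. Without control replicate 2, 6 were shorter, which 28.6% were. Leaving out a library can only add such calls. At JUN the control libraries, 6262 and 6172 bp, lay between the ATRA libraries, 6032 and 6708 bp. As a share of the library total, 4 members were lower in ATRA, FOSL2, JUNB, JUND and ATF3, which 25.4% of genes were.

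H3K4me3 covered the TSS of all 9 members in both ATRA libraries, against 51.9% of all genes, and of 8 in both control libraries, against 50.9%. FOSL1 was the exception, with its gap in control replicate 2. By length per window the order was the same in both groups for JUNB, FOSL1, FOSB, JUND and FOSL2, in that order, and ATF3 and BATF were last. JUNB had 50.1% and 46.6% of its window under H3K4me3 in ATRA and 54.7% and 39.1% in control, and BATF, with the least, had means of 6.72% in ATRA and 4.84% in control. In both groups JUNB overlapped with FOSL1, which held 45.7% and 48.6% in ATRA and 48.5% and 36.4% in control.

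Genes related to AP-1 were read in 3 lists. Of 13 other AP-1 superfamily genes, 11 had H3K27ac in their window, with a median log2 change of 0.40 against 0.49 over all genes tested. Of these 11, 6 were longer in ATRA and 2 shorter, calls that 43.7% and 3.86% of all genes had. MAFF, a small MAF protein, had 15829 and 7267 bp in ATRA and 936 and 873 bp in control, and BATF2, a relative of BATF, had 17742 and 12596 bp against 1180 and 2629 bp. Their log2 changes were 2.72 and 2.48, and the groups were far apart. The lowest were BATF3, at -0.32, with 7430 and 7086 bp in ATRA against 9242 and 9435 bp, and NRL, a retinal MAF family factor, at -0.23. JDP2 was longer in ATRA as well, with 7293 and 6619 bp against 5000 and 5071 bp.

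Of 18 immediate early and feedback genes, which are induced together with FOS or act on the same signal, all had H3K27ac, with a median of 0.66. In ATRA, 11 were longer and 0 shorter, against 43.7% and 3.86% of all genes. DUSP1, a phosphatase that switches off MAP kinases, had 9486 and 5400 bp in ATRA and no peak in either control library. ELK1, a transcription factor that acts at FOS, had 10646 and 11524 bp against 1523 and 860 bp. At the other end, CCN1, a secreted matrix protein, had 0 and 200 bp against 0 and 500 bp, and NR4A3, an orphan nuclear receptor, had 4505 and 7145 bp against 6038 and 5613 bp. Both of these overlapped.

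Of 17 MAP kinases and other regulators acting on AP-1, 15 had H3K27ac, with a median of 1.05. Of these 15, 9 were longer in ATRA and 0 shorter, against 43.7% and 3.86% of all genes. MAPK8, the JUN kinase JNK1, had 10231 and 6591 bp in ATRA and 670 and 995 bp in control. MAPK10, or JNK3, had 1025 and 15663 bp against 0 and 2419 bp, which overlapped despite a log2 change of 2.08. The lowest were MAPK9, or JNK2, at 0.07 and MAP2K3 at 0.09, both overlapping between groups. In H3K4me3, 4 genes of the first list, 7 of the second and 7 of the third were longer in ATRA, and MAFK alone was shorter. The shares longer in ATRA are to be read against the 43.7% of all genes for H3K27ac and 41.3% for H3K4me3. Shorter calls are to be read against 3.86% and 3.39%, and the H3K27ac medians against 0.49. The list values keep all peaks and are not scaled to library totals, settings on which the calls of the 9 members depended.

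**Figure D4:**
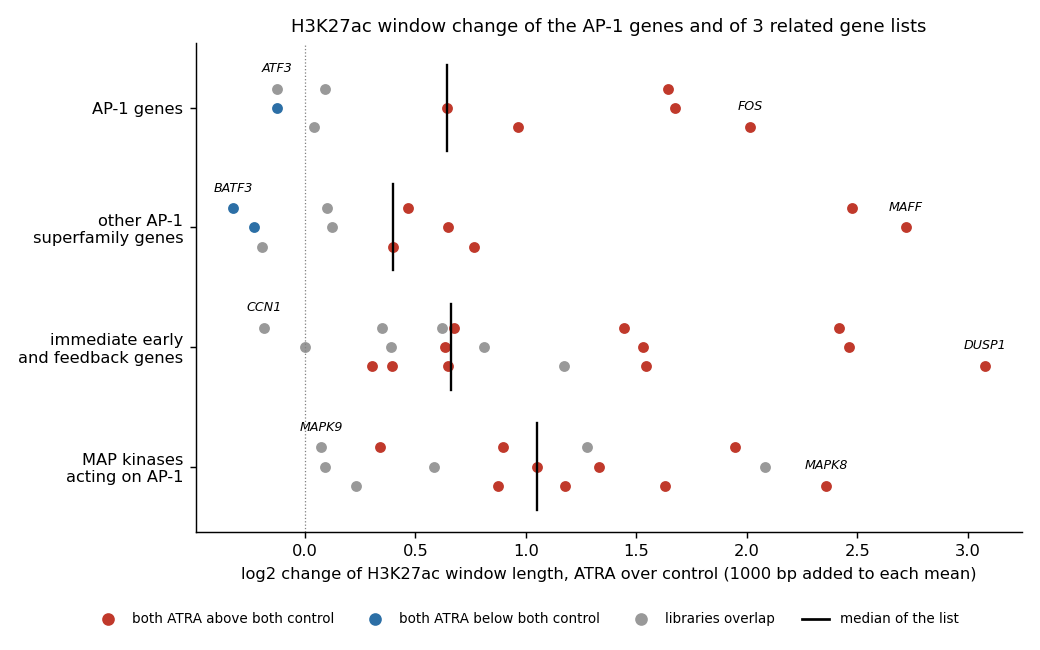
Log2 change of H3K27ac window length, ATRA over control, for the 9 AP-1 genes and the members of 3 related lists with a peak, with 1 point per gene and a black bar at the median of each list. Red points are genes with both ATRA libraries above both control libraries, blue the opposite and grey those that overlap. The AP-1 genes range from ATF3 and JUN at -0.13 to FOS at 2.02.

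The genes whose window lengths over the 8 libraries were nearest to those of FOS, among genes over 1 Mb away, were IL6R, H6PD and YPEL2, at Euclidean distances of 0.49, 0.65 and 0.78 on the log2(bp + 1000) scale. IL6R, the interleukin 6 receptor, had 26492 and 24209 bp of H3K27ac in ATRA and 1520 and 8847 bp in control. As at FOS, the lowest library was control replicate 1, a likeness that the choice by nearness to FOS builds in.

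As a check of the labels, 5 of 7 granulocyte differentiation genes, such as ITGAM, had an H3K4me3 peak over the TSS in each ATRA library, against 2 and 1 in the control libraries. Of 7 myeloid genes, such as MPO, 4 or 5 had one in each library, while ELANE and AZU1 had none in any library and PRTN3 only in ATRA. Of 7 markers of other cell types, 0 had one in ATRA and 1, GATA1, in each control library. For H3K27ac, 4 and 5 myeloid genes had a TSS peak in ATRA replicates 1 and 2, against 2 and 5 in control. For granulocyte differentiation genes it was 5 and 5 against 2 and 3. Between 0 and 2 of the markers of other cell types had one per library. The part of other cell types or of library quality in the AP-1 values was not tested.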

How the data were processed

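H3K4me3 and H3K27ac peaks of HL-60 cells were analyzed in 2 ATRA (1 µM, 4 days) and 2 control libraries per mark. The authors trimmed adapters, mapped the reads to hg19 using Bowtie and called broad peaks with MACS2 separately in each library, with the human genome size and no fragment model; versions are not given in the sources used here. Each deposited file gives peak positions in bp, a −log10 q per peak, averaged over the broad region, and further columns whose values the named measures cannot take, which were not used. No read counts were used, so depth is unknown and no counting interval is given; precision rests on 2 libraries per group.

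Length under peaks was summed in the gene body plus 20 kb on each side for 20090 protein-coding genes of GENCODE release 44 mapped to GRCh37, and at the MANE Select or canonical TSS, with at least 1 bp of overlap. A gene was included where at least 1 of the 4 libraries of a mark had a peak. The ± values are standard errors of the difference between mean log2(bp + 1000) of 2 and 2 libraries. The changes printed beside them are log2 ratios of means and can differ from that difference. Scripts used Python 3.11.15, numpy 2.4.6 and pandas 2.3.3 and were tested on simulated data. From each list the 2 genes with the largest and the 2 with the lowest H3K27ac change were named, and values of JDP2 and MAFK were added after they were seen. Stretches covered in both libraries of one group and neither of the other were named from 500 bp. Promoter motifs were searched in the 250 bases upstream of each TSS on both strands. The 9 genes and the related lists were chosen with earlier results of these data known. Replicates were compared without pairing.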

Additional observations from a re-analysis of the deposited data

How the results depend on the processing

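The labels do not say what a replicate number marks. In 40 kb bins with a peak, the deviations of same-numbered ATRA and control libraries from their group means correlated at r 0.24 over 13935 bins for H3K4me3 and 0.51 over 22429 bins for H3K27ac, as a description. With the replicate block, in which ATRA and control are compared within each pair of libraries, 7 members were longer and 1 shorter in H3K27ac (62.6% and 7.91% of all genes), 1 longer and 2 shorter in H3K4me3 (55.3% and 6.21%), and 2 had a longer H3K4me3 TSS peak. Among peaks with a −log10 q of at least 5, 0 members were longer in H3K27ac (9.6% of genes), 0 had H3K27ac at the TSS in both ATRA or in both control libraries, 0 had a longer H3K27ac TSS peak, and the median change was -0.34, with FOS at -0.97, FOSB at -1.40, FOSL1 at -0.032 and JUND at -1.08, FOSL2 at -2.46, JUNB at -0.34, ATF3 at 1.98 and BATF at 1.94, while 1 member was longer in H3K4me3. At that cutoff FOSL2 alone was shorter in H3K27ac (4.66% of genes), and no other member separated the groups in that mark. In H3K4me3, 34.7% of genes were longer at that cutoff. Scaled to library totals, 4 members were shorter in H3K27ac (25.1% of genes), with a median of -0.25 and JUND at -0.25. In H3K4me3, 4 were shorter (25.4% of genes). In the gene body alone, the H3K27ac median was 0.11. In H3K4me3, 3 members were then longer and 1 shorter (37.6% and 5.47% of genes). With 50 kb on each side, 0 members were shorter in H3K27ac (3.5% of genes). Joining peaks across 1000 bp left 1 longer H3K27ac TSS peak, and scaling to the median peak left 0 longer H3K4me3 TSS peaks. The cause of these differences was not tested. Leaving out 1 library can only add calls of window length, so it says nothing of their stability. The range was then 0 to 6 members longer and 0 to 6 shorter in H3K4me3 (6 longer without control replicate 1, 6 shorter without control replicate 2), with a median change of -0.19 to 0.29. Of all genes, 43.4% to 81.5% were longer and 4.53% to 28.6% shorter in that mark. In H3K27ac, the range was 6 to 7 members longer and 1 to 2 shorter, with a median of 0.39 to 0.68. Of all genes, 47.6% to 72% were longer and 5.8% to 19% shorter in H3K27ac. Between 4 and 7 members had H3K27ac at the TSS in both control libraries. A longer H3K27ac TSS peak was found at 2 to 4 members and a longer H3K4me3 TSS peak at 2 to 6. The other TSS definitions moved no count by over 1.5 times, and a pseudocount of 100 bp gave medians of 0.69 for H3K27ac and 0.035 for H3K4me3.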
